A study of Canis lupus familiaris with 9 samples.

Results

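Macrophages treated with IFN-γ (M1) were compared with resting macrophages (M0). The genes described are the 10790 of 12696 protein-coding genes in the deposited table whose authors' mean normalized count was at least 50 in M1 or in M0. The minimum was reached in both groups by 10179 genes, in M1 alone by 178 and in M0 alone by 433. The macrophages were grown from adherent blood monocytes of 3 healthy spayed beagles of about 2 years of age, and every culture spent 7 days in human M-CSF at 10 ng/mL. M0 cells then had no further cytokine, M1 cells had canine IFN-γ at 20 ng/mL, and the third group of the study, M2, had IL-4 together with IL-13, both canine and both at 20 ng/mL, all for 24 h before polyadenylated RNA was sequenced. Each group had 3 samples, so 6 samples stand behind the comparison and 9 behind the study.

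IFN-γ is the main macrophage-activating cytokine of T cells and natural killer cells. It binds a receptor made of IFNGR1 and IFNGR2, which signals through the kinases JAK1 and JAK2. A first set of genes is then switched on, among them the transcription factor IRF1, which in turn drives genes for antigen presentation, defense within the cell and T cell attraction, and SOCS1, which shuts the kinases off. In macrophages from mouse and human this program is known to come with lower expression of genes for tissue repair and scavenging.

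Values per sample were not analysed here, so each value below is the authors' mean of a group, and the differences could not be set against the spread between the 3 samples. No test was run. A gene is said to have risen or fallen where the mean in M1 was at least 2-fold above or below that in M0, a log2 ratio of at least 1 in size, and a change given as from one mean to another runs from M0 to M1. By that rule 600 genes rose, 5.56% of the 10790, and 946 fell, 8.77%. These shares are the background for the counts of each list below. A list's counts of genes that rose or fell cover only those measured that passed the minimum. Some genes, such as THBS1, are in several lists, so the counts of different lists are not separate results. The other 9244 of the 10790 genes lay under 2-fold either way. The middle 95% of log2 ratios ran from -1.97 to 1.61, around a median of 0.01. A log2 ratio of at least 3 in size was reached by 82 genes that rose and by 89 that fell. In M2 against the same M0 samples, 323 of 10787 genes rose (2.99%) and 377 fell (3.49%), and the middle 95% of log2 ratios ran from -1.18 to 1.11. The difference in width between the 2 comparisons was not tested.

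**Figure D1:**
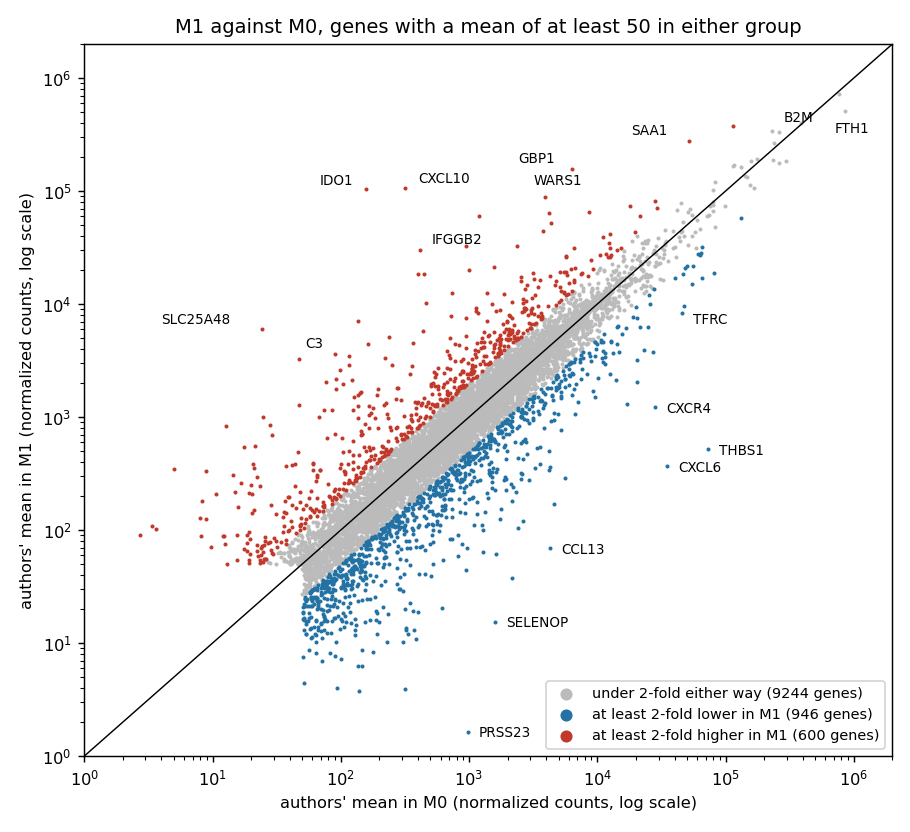
Each point is 1 of the 10790 genes, with the authors' mean normalized count in M0 on the x axis and in M1 on the y axis, both on log scales, and the black line marks equal means. Red points are the 600 genes at least 2-fold higher in M1, with IDO1 and CXCL10 farthest above the line, and blue points the 946 at least 2-fold lower, with PRSS23 and THBS1 farthest below it.

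Of the genes that passed the minimum in M1 alone, 104 of 178 rose, and of those that passed in M0 alone, 296 of 433 fell, which the minimum itself favors. The members nearest to the minimum were C30H15orf61 at 48 in M0 and 50.1 in M1 and TNFRSF25 at 46.5 and 50.1. Just outside it stood ETV1 at 49.9 in M0 and 27.3 in M1 and MSMP at 49.9 and 43.4. The group means of all genes added up to 26728643 for M0, 28039918 for M1 and 27312028 for M2, which are normalized sums and not depths. The genes that rose held 3.89% of the summed counts in M0 and 14.6% in M1. Those that fell held 9.88% in M0 and 3.09% in M1. In bulk RNA of this kind, fewer cells of a type and less RNA per cell cannot be told apart.

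The signaling pathway of IFN-γ itself was among the genes that moved. Of 21 genes for its receptor, the JAK kinases, the STAT factors and their inhibitors, 6 rose and 3 fell, with a median log2 ratio of 0.33. JAK2, one of the receptor's kinases, rose 4.1-fold from 4296 to 17622 and stood at 8823 in M2. IFNGR1, the chain that binds the cytokine, went the other way. Its means were 8970 in M0, 3105 in M1 and 4889 in M2, which is a log2 ratio of -1.53. JAK1, the other kinase, had a log2 ratio of 0.52 and STAT2 of 0.62, neither past 2-fold. STAT3 and STAT5A, which carry the signals of other cytokines, rose by log2 ratios of 1.19 and 1.05. STAT4, best known for IL-12 signaling, rose from 145 to 759 and was at 632 in M2.

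The inhibitors of the pathway parted. SOCS1, which blocks JAK kinases after IFN-γ, had means of 162 in M0, 4463 in M1 and 1727 in M2, so that it was 27.5-fold higher in M1 than in M0 and higher in M2 as well. SOCS2 and CISH, which are induced by cytokines that signal through STAT5, fell. The means of SOCS2 were 147 in M0, 6.31 in M1 and 449.8 in M2 and those of CISH 860.2 in M0, 281 in M1 and 4579 in M2. For both, M1 held the lowest and M2 the highest of the group means.

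**Figure D2:**
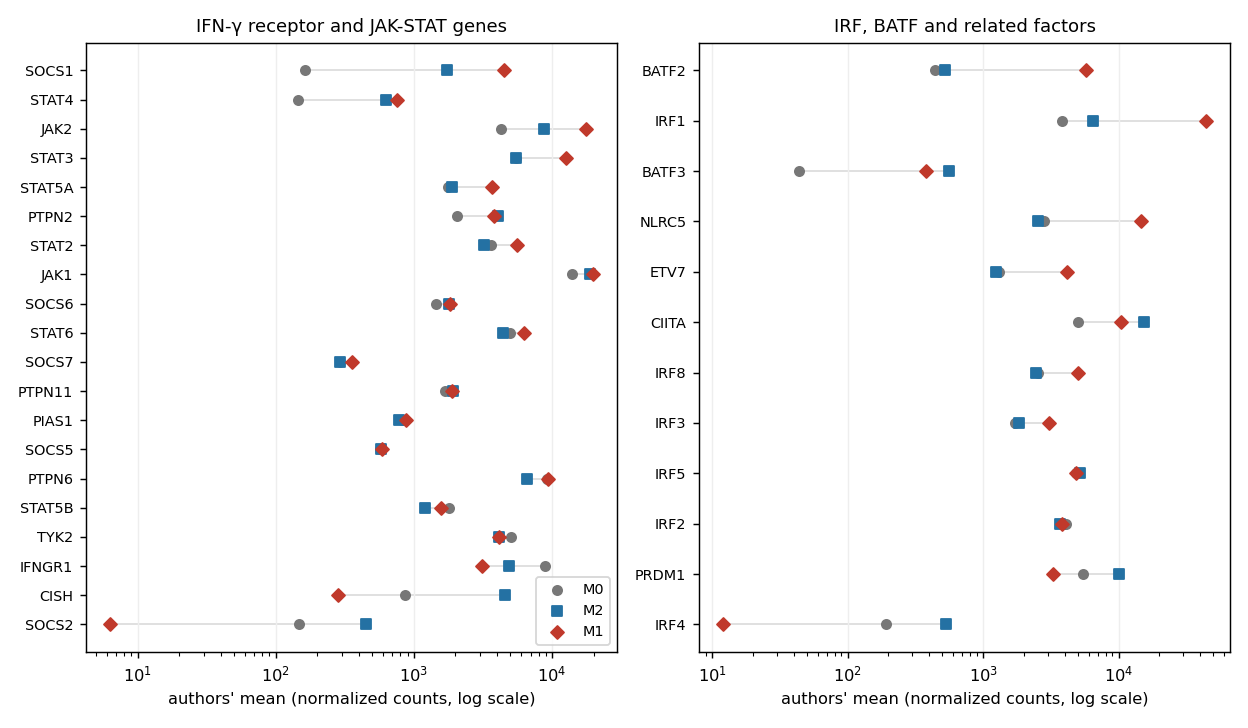
Authors' mean normalized counts, on a log scale, of the IFN-γ receptor and JAK-STAT genes (left, 1 member not shown) and of interferon regulatory factors, BATF factors and related regulators (right) in M0 (grey circles), M1 (red diamonds) and M2 (blue squares), ordered by the ratio of M1 to M0. SOCS1, IRF1 and BATF2 stand far to the right in M1, and SOCS2 and IRF4 far to the left.

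Among transcription factors, 6 of 12 interferon regulatory factors, BATF factors and their partners rose and 1 fell, with a median log2 ratio of 1.01. IRF1 rose 11.7-fold, with means of 3804 in M0, 44368 in M1 and 6449 in M2. BATF2, a partner of IRF1 in mouse macrophages, had means of 438 in M0, 5782 in M1 and 527 in M2 and rose 13.2-fold. NLRC5 and CIITA, the master regulators of MHC class I and class II genes, rose by log2 ratios of 2.38 and 1.06. Their order in M2 differed, since NLRC5 stood at 2551 there against 2807 in M0, whereas CIITA reached 15448 in M2, above its 10373 in M1. BATF3, a factor of conventional dendritic cells, rose from 43.8 to 381 and stood at 559 in M2. IRF8, which guides monocyte fate, was at 2546 in M0 and 5000.3 in M1, which is a log2 ratio of 0.97 just under the threshold. IRF4, a factor linked to the response to IL-4 in mouse macrophages, was the member that fell, with means of 192 in M0, 12.1 in M1 and 528 in M2.

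The largest ratio of all belonged to IDO1, which catalyzes the first step of tryptophan breakdown. Its means were 159 in M0, 104559 in M1 and 348 in M2, so that it rose 659.5-fold. WARS1, which loads tryptophan onto its transfer RNA, rose 22.7-fold from 3881 to 88262. KYNU, the kynureninase further down the same route, rose by a log2 ratio of 1.96, and IDO2, a paralog of IDO1, by 2.17 from 48 to 216. KMO, the hydroxylase between IDO1 and KYNU, was at 2708 in M0 and 2715 in M1. In the whole list on tryptophan and kynurenine 5 of 17 genes rose and 3 fell, with a median log2 ratio of 0.00. Among those that fell were SLC7A8 and SLC16A10, which carry aromatic and other neutral amino acids across the cell membrane. SLC7A8 had means of 2176 in M0, 37.5 in M1 and 918 in M2 and SLC16A10 of 450.1 in M0, 41.1 in M1 and 263 in M2. AHR, the receptor that senses tryptophan products, had a log2 ratio of -0.84, with means of 5748 in M0, 3219.7 in M1 and 11104 in M2. CYP1B1, one of its target genes, rose by a log2 ratio of 1.47. AHRR, the repressor of AHR, went the other way but stayed under 2-fold, at a log2 ratio of -0.63. The target genes of AHR were not tested as a set.

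GTPases that attack microbes inside the cell also held large increases. GBP1, a guanylate-binding protein, had means of 6382 in M0, 157690 in M1 and 17028 in M2, and GBP6 of 4223 in M0, 64030.2 in M1 and 12964 in M2. They rose 24.7-fold and 15.2-fold. IFGGB2, for which the table gives a symbol and no description, had means of 418 in M0, 30344 in M1 and 519 in M2 and rose 72.6-fold. The list of guanylate-binding and immunity-related GTPases did not hold IFGGB2. Of its 16 genes 7 were measured, and 2 of these rose. DNM1, a dynamin best known from neurons that the list also held, fell from 231 to 18. The other 4 lay under 2-fold either way. The median log2 ratio of the 7 was 0.02, which leaves out IFGGB2 and the genes not measured.

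Of 36 listed chemokines 13 were measured, and 12 of these passed the minimum. The 12 split into those that rose and those that fell, 3 each, with a median log2 ratio of -0.04. These values leave out the chemokines not measured. CXCL10, which draws T cells through CXCR3, had means of 318 in M0, 105296 in M1 and 425 in M2 and rose 331-fold. CCL8, a ligand of monocyte chemokine receptors, rose 7.53-fold, with 8618 in M0, 64883 in M1 and 19138 in M2. CCL5 rose by a log2 ratio of 1.76. Against these, CXCL8 and CXCL6, which draw neutrophils, fell. CXCL6 had means of 35096 in M0, 366 in M1 and 42909 in M2, 96-fold lower in M1 than in M0, and CXCL8 had 81725 in M0, 18722 in M1 and 136927 in M2. CCL13, a ligand of CCR2 and CCR3, had means of 4282 in M0, 69.3 in M1 and 34599 in M2, so that M1 and M2 lay on opposite sides of M0. CCL7, at 80504 in M0 and 75524 in M1, and CCL14, at 1667 in M0 and 1684 in M1, were almost level.

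Of 15 chemokine and chemoattractant receptors, 2 rose and 5 fell, with a median log2 ratio of -0.32. CXCR4 and ACKR3, which share the ligand CXCL12, were among those that fell. CXCR4 had means of 28349 in M0, 1224 in M1 and 29362 in M2 and ACKR3 of 4612 in M0, 169.8 in M1 and 9441 in M2, with the lowest mean of each in M1. The receptors for complement C5a, C5AR1 and C5AR2, fell, with log2 ratios of -1.29 and -1.09. CCR7, which guides cells to lymph nodes, rose from 99.2 to 354, and CCRL2, a receptor that binds chemerin, from 125 to 614. CXCR3, the receptor for CXCL10, had a log2 ratio of -0.72.

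The 51 cytokine and cytokine receptor genes moved both ways, with 14 higher, 11 lower and a median log2 ratio of -0.15. IL15, a growth factor of natural killer and memory T cells, rose from 223 to 1325, and IL15RA, which presents it at the cell surface, from 249 to 2881. In M2 these genes stood at 243 and 289, near their means in M0. IL27, a member of the IL-12 family, rose from 173 to 1096 and IL12RB1, a chain of the IL-12 receptor, from 217 to 1283. TNF and IL6 rose by log2 ratios of 2.26 and 2.08, from means of 295 and 234 in M0. The tumor necrosis factor relatives TNFSF10 (TRAIL) and TNFSF13B (BAFF) rose by log2 ratios of 2.36 and 2.12, and both were lower in M2 than in M0. IL21R and IL31RA, receptor chains for IL-21 and IL-31, rose 11.5-fold and 5.67-fold. For IL31RA, which serves itch and skin inflammation in dogs, the means were 671 in M0, 3807 in M1 and 128 in M2.

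Several genes of the IL-1 system fell in M1. IL1B, the cytokine, had means of 2207 in M0, 239.7 in M1 and 3635 in M2. Its natural antagonist IL1RN had 4954 in M0, 1061 in M1 and 5084 in M2, the decoy receptor IL1R2 12591 in M0, 2381 in M1 and 11222 in M2 and the signaling receptor IL1R1 558 in M0, 121 in M1 and 1138 in M2. IL18RAP, a chain of the IL-18 receptor, fell from 98.9 to 13.5. IL1A and IL1RAP, the other cytokine and a shared receptor chain, had log2 ratios of -0.93 and -0.94. IL10, an anti-inflammatory cytokine, fell, with a log2 ratio of -1.56, and TNFSF8 (CD30 ligand) from 332 to 12. CSF1R, the receptor for M-CSF, in which all of the cells were grown, had means of 63804 in M0, 28338 in M1 and 53353 in M2, and IL13RA1, a chain of the receptor for IL-4 and IL-13, fell, with a log2 ratio of -1.21.

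Of 5 listed genes of the immunoproteasome, which cuts peptides for MHC class I, 4 were measured. All 4 rose, with a median log2 ratio of 2.18. PSME2 and PSME1, the subunits of the proteasome activator, rose from 2534 to 17494 and from 2645 to 10214. PSMB9 and PSMB10, the catalytic subunits among those measured, rose by log2 ratios of 1.47 and 2.41. Of 27 genes for the constitutive proteasome 2 rose, yet all 27 had a log2 ratio above 0, and their median was 0.58. TAP1, the peptide pump of the endoplasmic reticulum, had means of 18086 in M0, 73266 in M1 and 26206 in M2, and ERAP2, a peptide-trimming enzyme, of 359 in M0, 2811 in M1 and 389 in M2. In the class I list 6 of 13 genes rose and none fell, with a median of 0.62. DLA-79, a class I gene, rose 3.49-fold. The class I genes DLA88 and DLA-64 and their light chain B2M had ratios of 1.24, 1.29 and 1.46 from high means in M0. Class I genes are near-identical in stretches, and how shared reads were split among them is not given in the sources used here.

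For MHC class II, the abundant chains DLA-DRA, DLA-DQA1 and CD74 had higher means in M2 than in M1. Of 25 listed genes 12 were measured, and of these 2 rose and none fell, with a median log2 ratio of 0.24. DLA-DMA, which helps load peptides, rose 2.91-fold with means of 28158 in M0, 81969 in M1 and 41589 in M2, and DLA-DOA, which restrains loading, rose from 37.4 to 141. The peptide-binding chain DLA-DRA stood at 237556 in M0, 266856 in M1 and 341459 in M2. Likewise DLA-DQA1 stood at 115364 in M0, 169635 in M1 and 212164 in M2 and the invariant chain CD74 at 384244 in M0, 401753 in M1 and 489033 in M2. The protease CTSS, which trims the invariant chain, was at 114770 in M0 and 165263 in M1.

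Among 25 genes of costimulation and immune checkpoints 6 rose and 2 fell, with a median log2 ratio of 0.18. CD274 (PD-L1), which restrains T cells, had means of 1129 in M0, 8667 in M1 and 1800.2 in M2, and CD40, which receives T cell help, of 1888 in M0, 12306 in M1 and 2406 in M2. They rose 7.67-fold and 6.52-fold in M1, and in M2 they stayed under 2-fold. ICAM1, an adhesion partner of T cells, rose to 24495 in M1 and stood at 25044 in M2, from 8914 in M0. CD86, a ligand of CD28, had means of 25068 in M0, 11926 in M1 and 11955 in M2, so that it was 2.1-fold lower in M1 than in M0. CD80, the other ligand, had a log2 ratio of -0.63. VSIR (VISTA), an inhibitory receptor, fell from 6662 to 1074.

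Antiviral effector genes leaned upward. Of 49 members 15 rose and none fell, with a median log2 ratio of 0.78. ISG20, an exonuclease that degrades viral RNA, had means of 698 in M0, 3575 in M1 and 467 in M2. SAMHD1, which drains the nucleotide pool, had 5716 in M0, 19166 in M1 and 3366 in M2, RSAD2 (viperin) 1237 in M0, 4102 in M1 and 751 in M2 and the tether BST2 4682 in M0, 14811 in M1 and 4563 in M2. In these examples M2 was close to M0 or below it. PARP14, IFI44L, ZBP1 and IFIT3 rose by log2 ratios of 2.07, 1.86, 1.82 and 1.63. MX2, a dynamin-like GTPase, was at 12472 in M0 and 14605 in M1, which is a log2 ratio of 0.23.

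Complement genes held some of the widest gaps. Of 17 members 7 rose and 4 fell, with a median log2 ratio of -0.32. C3, the central component, had means of 89.5 in M0, 3622 in M1 and 542 in M2 and rose 40.5-fold. SERPING1, the inhibitor of C1, rose 21.3-fold from 239.7 to 5105, and C1R, a protease of C1, from 3.63 to 102. The chains of C1q rose unequally. C1QB had a log2 ratio of 4.10, C1QC of 1.89 and C1QA of 1.34. C2 rose by a log2 ratio of 2.24. ITGAM, a chain of complement receptor 3, and CFP (properdin) fell, with log2 ratios of -1.33 and -1.05.

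Cell death genes also contained strong increases. In the apoptosis and necroptosis list 8 of 36 rose and 1 fell, with a median of 0.19. BCL2L14, a relative of BCL2, rose from 103 to 1945, and BAK1, which opens the outer mitochondrial membrane, from 1403 to 5198. In the inflammasome and pyroptosis list 3 of 13 rose and 4 fell, with a median of 0.19. GSDMD, the pore former, rose 3.79-fold, NINJ1, which ruptures the membrane of dying cells, 6.6-fold and the adaptor PYCARD 2.77-fold. MEFV (pyrin) and NLRP1 fell, with log2 ratios of -2.20 and -1.25, and NLRP3 was at 4162 in M0 and 4564 in M1.

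Sensors of microbes went both ways. Of 24 Toll-like receptors and adaptors 3 rose and 2 fell, with a median of -0.14. TLR4, the receptor for lipopolysaccharide, was at 7336 in M0 and 7793 in M1, while TLR2 and TLR7 fell, with log2 ratios of -1.01 and -1.03. In the NF-κB list 3 of 29 rose and 1 fell, with a median of 0.14. BIRC3, a ubiquitin ligase of that pathway, rose 7.09-fold. Of 13 listed genes of the NADPH oxidase, which makes superoxide, 7 were measured. All 7 stayed under 2-fold, from -0.39 to 0.07 on the log2 scale. CYBB, the catalytic subunit of the oxidase, was at 22534 in M0 and 20055 in M1. The list on arginine, nitric oxide and tetrahydrobiopterin held 21 genes, of which 13 were measured. Among its 12 members 1 rose, by a log2 ratio of 1.28, and 2 fell, with a median of -0.02. ARG1, an arginase gene, stayed under the minimum, at 23.6 in M0 and 26.6 in M1. ARG2, the mitochondrial arginase, fell from 1459 to 534, and GCH1, which opens the synthesis of the cofactor of nitric oxide synthase, was at 146 in M0 and 152 in M1.

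**Figure D3:**
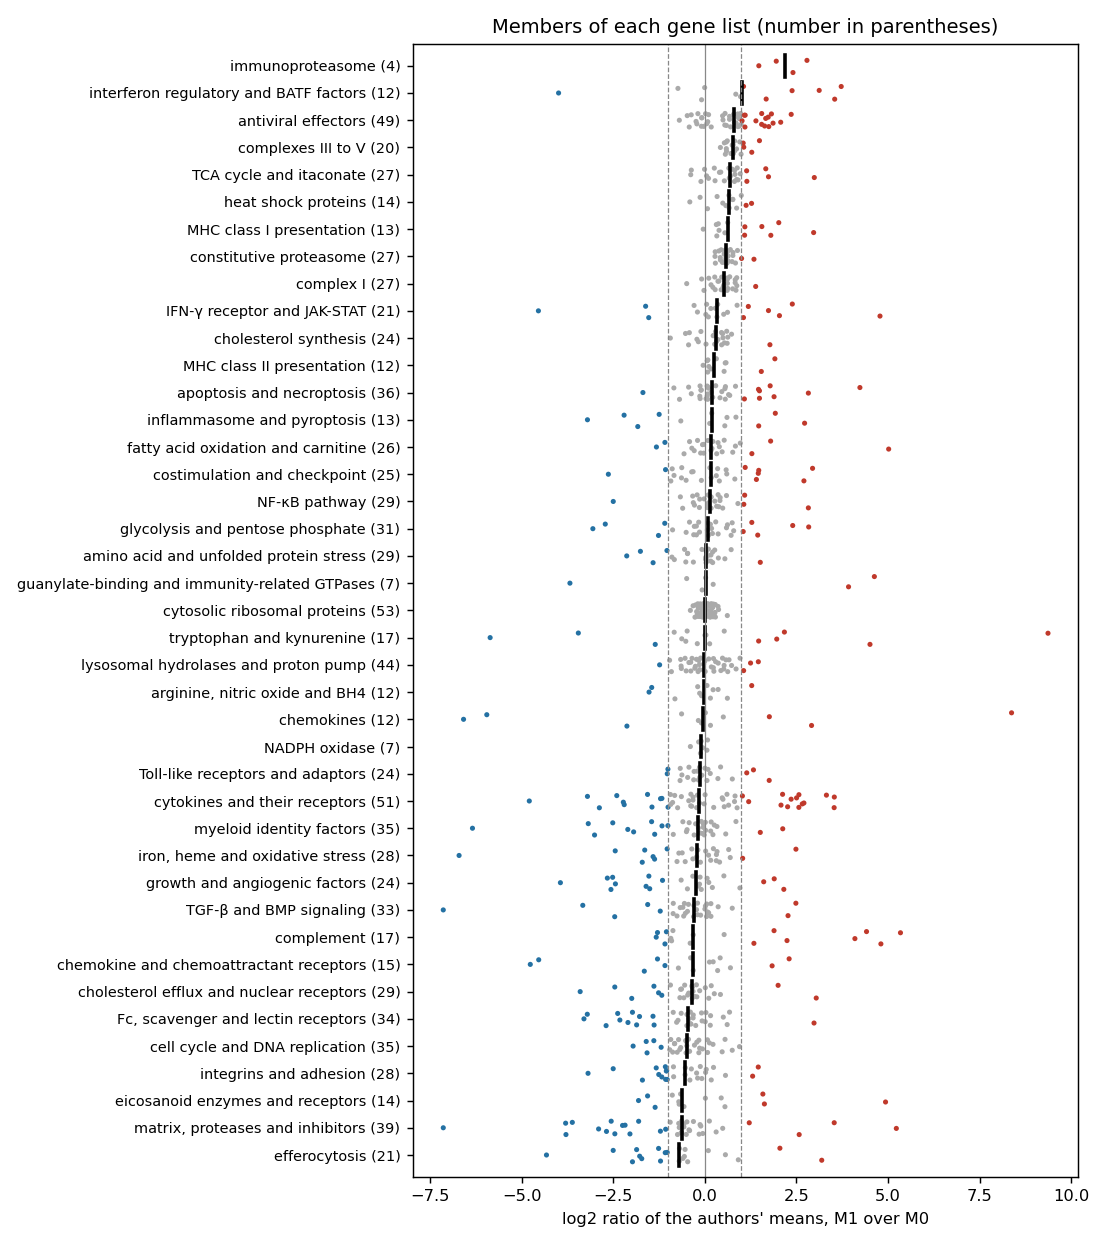
Log2 ratio of the authors' means, M1 over M0, for every member of the 41 gene lists (number of members in parentheses), with red points at least 2-fold higher, blue points at least 2-fold lower, dashed lines at ratios of 2-fold and a black bar at each list's median. The medians run from -0.70 for efferocytosis to 2.18 for the immunoproteasome, and none of the 53 cytosolic ribosomal proteins reaches 2-fold.

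Receptors for uptake and clearance fell more often than they rose. Of 34 Fc, scavenger and lectin receptors 11 fell and 1 rose, with a median log2 ratio of -0.46, and of 21 genes for the uptake of dying cells 10 fell and 2 rose, with a median of -0.70. CD163, the receptor for hemoglobin and haptoglobin, had means of 47679 in M0, 9559 in M1 and 39147 in M2. MRC1, the mannose receptor CD206, had 7046 in M0, 1355 in M1 and 33893 in M2, so that M1 and M2 stood on opposite sides of M0. The scavenger receptors STAB1 and CD36 fell, with log2 ratios of -1.86 and -1.97. The lectins CLEC10A, CLEC4D and CLEC7A (dectin-1) fell as well, with log2 ratios of -3.30, -3.21 and -2.69. CD209 (DC-SIGN), a lectin best known from dendritic cells, was the receptor that rose, with 90.0 in M0, 710 in M1 and 5576 in M2.

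The clearance genes that rose in M1 were AXL and P2RY6. AXL, a receptor kinase for bridging proteins on dying cells, had means of 137 in M0, 1254 in M1 and 186 in M2, and its relative MERTK 3933 in M0, 7411 in M1 and 3381 in M2, which is a log2 ratio of 0.91. P2RY6, which senses nucleotides from dying cells, rose from 544 to 2252. LRP1, a large endocytic receptor, fell from 133057 to 57564. S1PR1, a receptor for sphingosine 1-phosphate, fell from 1277 to 63.9. FCGR1A, the high-affinity IgG receptor that IFN-γ is known to raise on human monocytes, was at 7310.3 in M0, 4021 in M1 and 7141 in M2, which is a log2 ratio of -0.86.

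Matrix and growth factor genes also fell more often than they rose. Of 39 genes for matrix proteins, proteases and their inhibitors 14 fell and 4 rose, with a median of -0.63. THBS1 (thrombospondin-1), which binds matrix and activates latent TGF-β, had means of 73173 in M0, 519.6 in M1 and 47559.8 in M2, 141-fold lower in M1. FN1 (fibronectin) and VCAN (versican) fell to 3921 and 297 in M1 from 23042 and 1906 in M0. In M2 they stood above M0, at 80386 and 11454. SERPINB2, an inhibitor of plasminogen activators, had 4199 in M0, 342 in M1 and 1969 in M2. MMP9 and MMP12, gelatinase B and macrophage elastase, had log2 ratios of -0.57 and -0.70. Among those that rose, TIMP4, an inhibitor of metalloproteinases, went from 8.86 to 332 and LAMB1, a laminin chain, from 142 to 1644.

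Of 24 growth and angiogenic factors and receptors 9 fell and 3 rose, with a median of -0.25. VEGFA, the main angiogenic factor, had means of 20324 in M0, 3215 in M1 and 22544 in M2. The ligands of the EGF receptor family HBEGF, AREG and NRG1 fell as well. HBEGF had 348 in M0, 22.6 in M1 and 2755 in M2, AREG 845 in M0, 143 in M1 and 1384 in M2 and NRG1 519 in M0, 90.7 in M1 and 811 in M2. For all 4 of these genes M1 was the lowest group and M2 the highest. HGF and HGFAC, hepatocyte growth factor and its activator, fell from 386 to 71.2 and from 304 to 10.1. ADM (adrenomedullin), a vasodilator peptide, rose from 31.4 to 139.8.

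TGF-β and BMP signaling genes also included some that fell. Of 33 members 5 fell and 2 rose, with a median log2 ratio of -0.30. TGFBR1, a receptor chain, fell from 3888 to 1319. The targets TGFBI and PMEPA1 fell, with log2 ratios of -1.22 and -2.46. TGFB1, the ligand, was at 4048 in M0 and 3527 in M1. SMAD3, a signal carrier, rose from a low mean of 18.6 to 89.9. Among 28 integrins and adhesion molecules 11 fell and 2 rose, with a median of -0.54. ITGA6, a laminin receptor chain, had means of 3247 in M0, 356 in M1 and 544 in M2, while ITGAL, the LFA-1 chain that binds ICAM1, rose from 6565 to 16216.

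In the list of myeloid transcription factors, which ran beyond lineage factors to genes such as SOX4, EGR1 and FOS, more fell than rose. Of its 35 members 10 fell and 2 rose, with a median of -0.18. SPI1 (PU.1), the master factor of the lineage, had means of 23732 in M0, 23980 in M1 and 26264 in M2. MAF, a factor of scavenging macrophages, had 2556 in M0, 282 in M1 and 5010.1 in M2. SOX4 fell from 315 to 3.89, EGR1 from 1158 to 269.7 and FOS from 20483 to 7486. TFEC, a relative of MITF, rose from 1297 to 5661 and ATF3, a stress-induced repressor, from 891 to 2543.

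**Figure D4:**
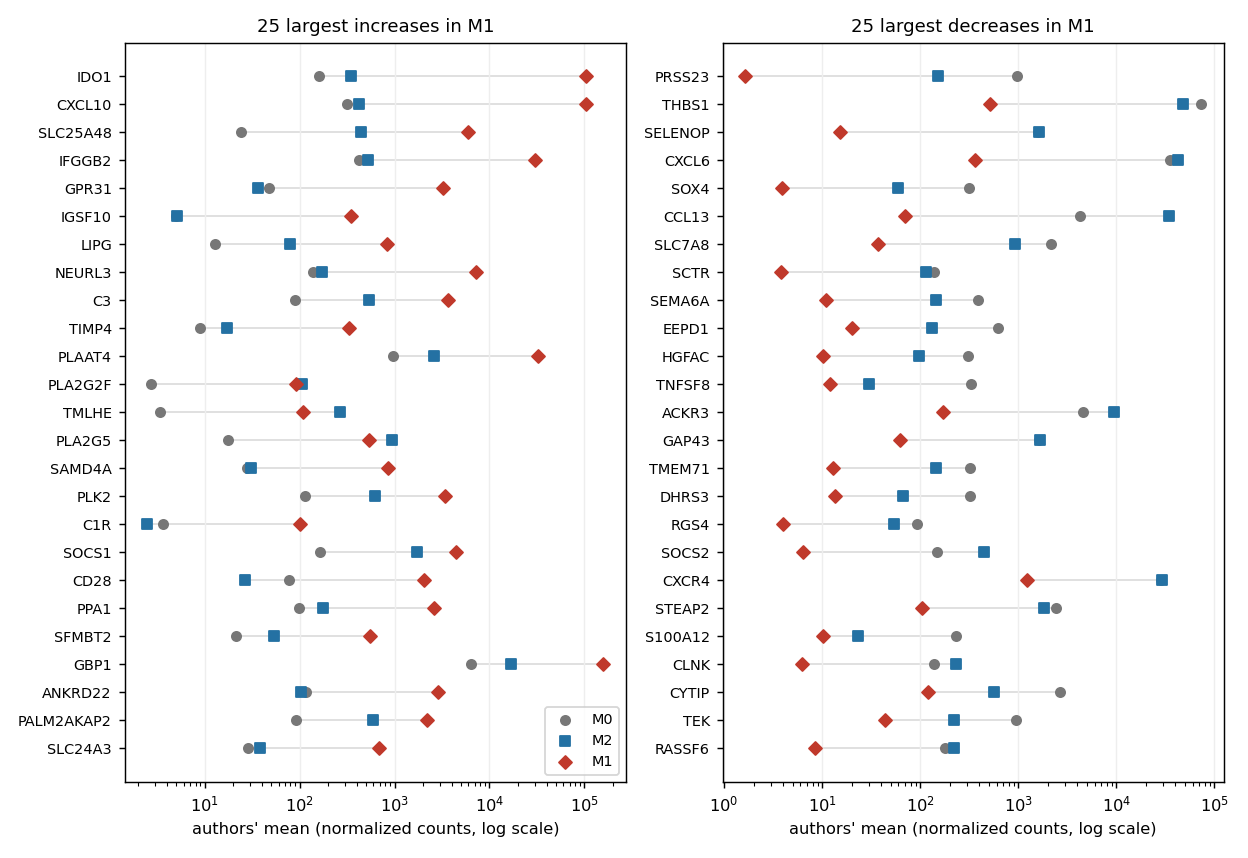
Authors' mean normalized counts, on log scales, of the 25 named genes with the largest rise in M1 over M0 (left) and the 25 with the largest fall (right), in M0 (grey circles), M1 (red diamonds) and M2 (blue squares). M2 lies near M0 for IFGGB2, GPR31 and SAMD4A on the left, above M1 for PLA2G5 and TMLHE, and above M0 for CCL13, ACKR3 and SOCS2 on the right.

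The largest ratios outside the lists described so far came from a mixed set of genes. Among them PLA2G5 and TMLHE, and SELENOP on the side that fell, belong to lists described further below. SLC25A48, of the mitochondrial carrier family, had means of 24.3 in M0, 5990.5 in M1 and 448 in M2, the third largest ratio of a named gene. NEURL3, a ubiquitin ligase, had 137 in M0, 7141 in M1 and 172 in M2, GPR31, a G protein-coupled receptor, 47.1 in M0, 3276 in M1 and 36.8 in M2 and LIPG (endothelial lipase) 12.8 in M0, 835 in M1 and 79.2 in M2. PLAAT4, a phospholipase and acyltransferase, had 955 in M0, 32399.7 in M1 and 2618 in M2, PLK2, a kinase, 115 in M0, 3442 in M1 and 624 in M2 and PPA1, a pyrophosphatase, 98.4 in M0, 2592 in M1 and 177 in M2. IGSF10, SAMD4A, SFMBT2, ANKRD22, PALM2AKAP2 and SLC24A3 rose by log2 ratios of 6.12, 4.93, 4.69, 4.62, 4.58 and 4.58, and each had its highest mean in M1. Secreted phospholipases of group II and V were different, since they were higher still in M2. PLA2G5 had 17.6 in M0, 538 in M1 and 949 in M2 and PLA2G2F 2.74 in M0, 91 in M1 and 105 in M2. TMLHE, the first enzyme of carnitine synthesis, had 3.34 in M0, 108 in M1 and 267 in M2.

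On the other side PRSS23, a serine protease, had means of 975 in M0, 1.65 in M1 and 152 in M2, the largest fall of a named gene by the plain ratio. With a pseudocount of 10 its log2 ratio was -6.40, behind THBS1 at -7.11 and CXCL6 at -6.55. SELENOP, the selenium carrier, had 1605 in M0, 15.4 in M1 and 1614 in M2. SEMA6A, a semaphorin, had 388 in M0, 10.8 in M1 and 146 in M2, SCTR (secretin receptor) 138 in M0, 3.77 in M1 and 114 in M2 and EEPD1 617 in M0, 20.3 in M1 and 132 in M2. GAP43, a growth-associated protein best known from neurons, had 1634 in M0, 61.6 in M1 and 1669.7 in M2, and STEAP2, a metalloreductase, 2422 in M0, 105 in M1 and 1824 in M2. For SELENOP, SCTR, GAP43 and STEAP2 the mean in M2 lay nearer to M0 than to M1. TMEM71, DHRS3, RGS4, CLNK, CYTIP and RASSF6 fell, with log2 ratios of -4.64, -4.57, -4.55, -4.46, -4.45 and -4.41.

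Where a group mean is a few counts, the ratio is imprecise. The mean of PRSS23 in M1 amounts to about 5 normalized counts over 3 samples, and counting error alone gives its log2 ratio of -9.21 an exact 95% interval of -10.82 to -7.97. For SOX4 the interval was -7.26 to -5.49 around -6.34, and for PLA2G2F 4.09 to 6.32 around 5.05. IDO1, with high counts in M1, had one of 9.23 to 9.50. These intervals (Clopper-Pearson) treat normalized counts as reads and leave out the differences between dogs and cultures.

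Ranked by the difference of the means instead of their ratio, other genes led. Such differences count sequenced fragments and are not corrected for gene length. SAA1, an acute-phase protein, had the largest gain of a named gene, from 51559 to 279372, with 71199 in M2. GBP1 gained 151308 normalized counts, B2M 106930, CXCL10 104978 and IDO1 104401. LAP3, a leucine aminopeptidase, rose from 4377 to 51802 and TKT (transketolase) from 29377 to 71444. Of the 15 largest gains 2 belonged to genes without a name. The 10 largest, named or not, held 21.6% of all gains. FTH1, the ferritin heavy chain, had the largest loss. Its means were 857506 in M0, 506551 in M1 and 665535 in M2, which is a log2 ratio of -0.76 that did not reach 2-fold. LYZ (lysozyme) had 64970.4 in M0, 16854 in M1 and 35609 in M2 and CTSK (cathepsin K) 166483 in M0, 106746 in M1 and 127338 in M2. SMPDL3A, BPI and MMP14 lost 46383, 44929 and 39823 normalized counts at log2 ratios of -0.09, -0.31 and -0.43. PLEC (plectin) fell from 63558 to 27008. The 10 largest losses held 21.8% of all losses.

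**Figure D5:**
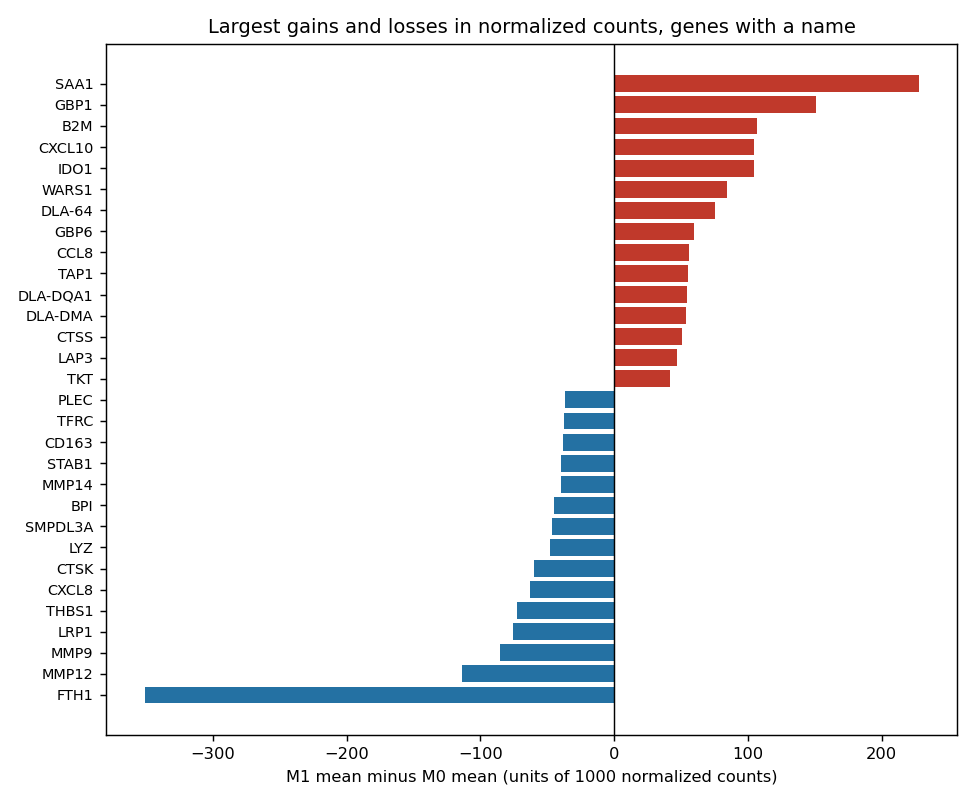
Difference between the authors' means in M1 and M0, in units of 1000 normalized counts, for the 15 named genes with the largest gain (red) and the 15 with the largest loss (blue). SAA1 and GBP1 lead the gains, and the loss of FTH1 is larger than any of the gains shown.

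Genes for iron and oxidative stress fell more often than they rose. Of 28 genes for iron, heme and oxidative stress 7 fell and 2 rose, with a median log2 ratio of -0.21. TFRC, which takes up transferrin-bound iron, had means of 45532 in M0, 8361 in M1 and 25434 in M2. SLC11A1 (NRAMP1), the metal pump of the phagosome, was at 42186 in M0 and 68227 in M1, and FTL, the ferritin light chain, at 21068 in M0 and 26180 in M1. STEAP4, a metalloreductase, rose from 784 to 4394. SLC7A11, the cystine importer, and NQO1, a quinone reductase, fell, with log2 ratios of -1.41 and -1.64.

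Genes for cholesterol handling went both ways. NR1H3 (LXRα), the sterol-sensing nuclear receptor, had means of 1128 in M0, 9277 in M1 and 585 in M2. Among genes known as its targets, picked after the values were seen, ABCA1 had 40417 in M0, 16854 in M1 and 23172 in M2, ABCG1 843 in M0, 322 in M1 and 2299 in M2 and MYLIP 652 in M0, 164 in M1 and 271 in M2, each more than 2-fold lower in M1 than in M0. Of 29 genes for cholesterol efflux and nuclear receptors 6 fell and 2 rose, with a median of -0.35. Of 24 for cholesterol synthesis and its control INSIG1 alone rose, from 2175 to 7452, and the median was 0.31.

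Mitochondrial genes leaned upward in small steps. Of 27 genes of the TCA cycle and itaconate synthesis 5 rose and none fell, with a median of 0.70 and 23 ratios above 0. ACOD1, which makes itaconate, had means of 940.3 in M0, 7459.6 in M1 and 407 in M2. SDHB, a subunit of succinate dehydrogenase, rose from 569 to 1898 and SDHA had a log2 ratio of 0.67. Of 20 subunits of complexes III to V and their partners 4 rose and all 20 had ratios above 0, with a median of 0.78. For complex I, 1 of 27 rose, with a median of 0.52. ATP5F1B, the catalytic subunit of ATP synthase, was at 16163 in M0 and 29447 in M1. Over all 10790 genes the median was 0.01.

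Glycolysis was mixed. Of 31 genes for glycolysis and the pentose phosphate route 5 rose and 4 fell, with a median of 0.10. HK2, the inducible hexokinase, rose from 832 to 4385 and SLC2A6, a sugar transporter, from 708 to 5049. SLC2A1, the common glucose transporter, fell, with a log2 ratio of -1.09, and PDK4, a brake on pyruvate oxidation, fell from 1160 to 139.5. GAPDH was at 13772 in M0 and 16925 in M1. In the fatty acid oxidation list 3 of 26 rose and 2 fell, with a median of 0.18, and CPT1A, the gate of that pathway, had a log2 ratio of 0.84. Of 14 eicosanoid genes 3 rose and 3 fell, with a median of -0.61. PTGS2 (COX-2) fell from 2442 to 827, and PTGER2, a prostaglandin E receptor, rose from 1123 to 3368.

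Ribosomal and lysosomal genes were nearly level. None of 53 cytosolic ribosomal protein genes reached 2-fold, with a median of 0.01 and a range of -0.39 to 0.61. Of 44 lysosomal hydrolase and proton pump genes 3 rose and 1 fell, with a median of -0.01. In the list of amino acid and unfolded protein stress 1 of 29 rose and 4 fell, with a median of 0.03. Heat shock proteins had 2 of 14 higher and a median of 0.66. Of 35 genes for the cell cycle and DNA replication 5 fell and none rose, with a median of -0.49. MKI67, a proliferation marker, fell from 749 to 328 and TOP2A, which acts in dividing cells, from 622 to 208, while MCM2, which licenses replication, had a log2 ratio of 0.95.

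Some genes that rose or fell followed one another along the chromosomes. Among 9428 members placed in the RefSeq gene order of another dog assembly (UU_Cfam_GSD_1.0), 14 runs of at least 3 consecutive members rose and 20 fell. Genes that are not among these members were skipped, so that the genes of a run need not be direct neighbors. The longest that rose held GIMAP8, GIMAP1, GIMAP4, GIMAP2, TMEM176B and TMEM176A. The GIMAP genes encode GTPases of the immunity-associated protein family, and GIMAP4 had means of 2720.4 in M0, 13523 in M1 and 1565 in M2. TMEM176A and TMEM176B rose from 14.5 to 309 and from 20.1 to 249. Another run held the purinergic receptor genes P2RY14 and P2RY13 with IGSF10 and SUCNR1, the succinate receptor, which went from 1051 to 2907. SERPINB1, SERPINB9 and SERPINB6 made up a run that rose, whereas SERPINB8, SERPINB2 and SERPINB12 made up one that fell. S100A2, S100A5, S100A8 and S100A12 formed another that fell, and 1 more held the desaturases FADS1 and FADS2, with log2 ratios of -1.39 and -1.56. These runs were picked out after the values were seen. How many runs a random gene order would give was not computed.

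The share of genes that rose or fell varied with the level of expression. Sorted by their mean in M2, which the ratio of M1 to M0 does not use, the 349 members under 50 had 24.4% higher and 32.7% lower. These genes passed the minimum only through M0 or M1, which itself favors a difference. Among the 1737 members between 50 and 200 the shares were 6.04% and 16.5%, and among the 4115 between 200 and 1000 they were 4.54% and 6.25%. Among the 3671 between 1000 and 5000 they were 4.49% and 5.28%, and among the 918 at 5000 or more they were 6.32% and 10.3%.

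The label of the cells was checked against their markers. Of 17 listed markers of monocytes and macrophages 15 were measured and all of these passed the minimum, and their summed means were 713502 in M0, 594352 in M1 and 784273 in M2. CD68 was at 12144 in M0 and 8990 in M1 and AIF1 at 3940 in M0 and 4525 in M1, while 5 of the markers fell, CD163, MRC1, LYZ, ITGAM and CSF1R, and 3 rose, the chains of C1q. The T cell chains CD3E, CD3D and CD3G stood at 88.8, 14.7 and 21.6 in M1 against 92.8, 18.2 and 25.2 in M0. Of 9 T cell markers that passed the minimum 2 rose and 1 fell. CD28, the costimulatory receptor of T cells, had means of 77.4 in M0, 2052 in M1 and 26.7 in M2, and CD2 1253 in M0, 5032 in M1 and 919 in M2, whereas CD4 had 4325 in M0, 918 in M1 and 5565 in M2. None of 8 natural killer cell markers measured reached a mean of 50, and their summed means were 107 in M0 and 143 in M1.

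Markers of other cell types went both ways. Of 4 B cell and plasma cell markers none rose or fell, with CD79A at 10511 in M0 and 9856 in M1. MS4A1 (CD20) and PAX5, which define B cells, stood at 17.2 in M0 and 14.4 in M1 and at 9.91 in M0 and 6.56 in M1. Neutrophil markers had 1 of 4 higher and 2 lower, and their summed means were 21144 in M0 and 9890.5 in M1. S100A12 fell from 229.7 to 10.2 and S100A8 from 20174 to 9342. Dendritic cell markers had 3 of 5 higher, among them BATF3 and CCR7, and 1 lower, CD1C with 2556 in M0, 1001 in M1 and 60136 in M2. The mast cell and basophil markers MS4A2 and FCER1A fell from 200.2 to 15.2 and from 342 to 80.0. Endothelial markers had 3 of 5 lower, led by TEK, the angiopoietin receptor, with 947 in M0, 43.9 in M1 and 221 in M2. The fibroblast markers PDGFRB and THY1 rose from 125 to 466 and from 72.2 to 148. The platelet marker TUBB1 was at 44.1 in M0 and 62.4 in M1, and the erythroid markers measured summed to 38.8 in M0 and 18.1 in M1. The part of other cells in the values above was not tested.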

How the data were processed

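Polyadenylated RNA was sequenced in 9 samples, 3 each of M0, M1 and M2. The labels repeat 3 descriptions in every group, read here as 3 dogs. Per the labels and the paper's methods, the authors worked in Partek 7.0, where reads were mapped to CanFam3.1 by STAR 2.7.3a, HTSeq gave counts per gene, and DESeq2 normalized these counts and compared the groups. The signal values used here are the authors' deposited least squares means per group of those normalized counts, for 12696 protein-coding genes. Whether the counting used strand, and how overlapping or near-identical genes were handled, is not given in the sources used here. The table's other columns hold the authors' ratios, fold changes, p-values and false discovery rates for each pair of groups, and smaller tables hold subsets of them. These were not used, so no p-value is given. Depth per sample was not analysed here.

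Log2 ratios of M1 to M0 were computed from the means without a pseudocount (pandas 2.3.3 and numpy 2.4.6 in Python 3.11.15, with intervals from scipy 1.17.1 and figures from matplotlib 3.10.9), on genes with a mean of at least 50 in either group. The computation was tested on simulated data. The genes named were the 25 largest log2 ratios and the 15 largest gains or losses in each direction among genes with a name, members of 41 gene lists (up to 12 a list) and 11 marker lists, and the genes nearest to the minimum. A few list members are not reported here. Other genes named were chosen after their values were seen. The comparison, the members and the lists, written from textbook knowledge, were chosen with earlier results of these data known. Gene order came from RefSeq (UU_Cfam_GSD_1.0), a different assembly, so no coordinates are given. Other thresholds, minimums, scalings and a pseudocount were tried.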

Additional observations from a re-analysis of the deposited data

How the results depend on the processing

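The 600 genes that rose and the 946 that fell became 302 and 462 at a log2 ratio of 1.5 and 176 and 262 at a log2 ratio of 2. Under the other alternatives both counts stayed within 1.5 times the main ones, at 496 to 750 higher and 650 to 1359 lower. Rescaling the means to the same total, which lowers each log2 ratio by 0.07, gave 525 and 1062. Of the 80 genes named by ratio, gain, loss or nearness to the minimum, none crossed 2-fold with that rescaling or a pseudocount of 10, and C30H15orf61 alone changed sign, from 0.06 to -0.01 on rescaling. The pseudocount brought 29 of them nearer to 0 by more than their counting error, for example PRSS23 from -9.21 to -6.40, PLA2G2F from 5.05 to 2.99, TMLHE from 5.02 to 3.15 and C1R from 4.81 to 3.03. Of 41 list medians, that of the interferon regulatory and BATF factors went from 1.01 to 0.95 on rescaling and 0.99 on centring, below 2-fold. Those of the guanylate-binding GTPases, tryptophan, ribosomal and amino acid stress lists, all within 0.03 of 0, changed sign under both.

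No paired analysis was possible because group means alone were analysed. Leaving out a replicate could not be run for the same reason, so no ratio here has a replicate check. A ratio against a mean of a few counts is imprecise. Promoter motifs, which were planned, were not searched because no promoter sequence was used here.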

Other observations

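Gene families taken by the letters that open their symbols, with at least 15 members, were counted after the values were seen and carry no test. Over all genes 5.56% rose and 8.77% fell. Of 25 kinesins (KIF), the motor proteins that move along microtubules and build the spindle, 8 fell and none rose, with a median log2 ratio of -0.89. KIF11, a spindle motor, fell from 221 to 76 and KIF23, which acts in cell division, from 136 to 54.3. Of 40 proteins of the large mitochondrial ribosomal subunit (MRPL) and 21 of the small one (MRPS), none rose or fell, and their medians were 0.38 and 0.43. Of 27 subunits of the RNA polymerases (POLR) none rose or fell either, with a median of 0.26.

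Of 186 solute carriers (SLC), which move small molecules across membranes, 16 rose and 22 fell, and the median was -0.02. Both shares lay somewhat above the 5.56% and 8.77% over all genes. The zinc and manganese importers SLC39A8 and SLC39A14 rose from 6734 to 20803 and from 7607 to 18877, and the zinc exporter SLC30A1 from 2256 to 6463. In M2 these genes stood at 5552, 988 and 924, below their means in M0. SLCO2A1, a prostaglandin transporter whose symbol is outside this family count, fell from 1265 to 111. Of 225 zinc finger genes (ZNF) 4 rose and 4 fell, with a median of -0.14.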
